A study of Homo sapiens with 12 samples.

Results

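The constitutive proteasome genes were followed in MDA-MB-468 and BT-549, both basal-like breast cancer lines, in cells that received a PKCδ siRNA. They are 38 listed genes: subunits of the core particle and of the regulatory particle, 4 chaperones of their assembly, 2 alternative activators and 1 inhibitor. A listed gene was a member where a probe named for it had a detection p-value under 0.01, that is a signal above the negative control beads, on at least 3 of the 12 arrays. This left 33 members out of 11459 genes tested in all, and each of the 33 was detected on all 12 arrays. PSMA7, PSMC5, PSMD7 and PSMD13 were not analysed here, and the probe of PSMF1, an inhibitor of the core particle, was detected on 0 arrays. The members comprised 13 core subunits, 14 regulatory subunits, the chaperones PSMD5, PSMD9, PSMD10 and POMP, and the activators PSME3 and PSME4.

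Each line was treated with a control siRNA (siControl) or an siRNA against PRKCD (siPRKCD), the gene of PKCδ, with 3 arrays per group. MDA-MB-468 and BT-549 are established human lines, so each stands for 1 tumour. Of these 2 lines, BT-549 alone was grown with added insulin, so any difference between the lines is also one of medium. The general transfection protocol used 40 nM siRNA for 72 h, and both siRNAs were given in the same way. The labels number the samples 1 to 3 within a group. The study describes its values as means over separate experiments, but nothing ties these arrays to separate cultures one by one, so p-values speak only of the scatter among these samples. Total RNA was hybridized to Illumina Human HT-12 v4 BeadChips, and values below are quantile-normalized signals on the log2 scale, where a difference of 1 is a doubling. Signals of different probes cannot be set against each other, so only differences of 1 gene between samples are compared.

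The proteasome degrades proteins tagged with ubiquitin. Its barrel-shaped core particle is built of α rings, which gate the entry, and β rings, which hold the proteolytic sites of PSMB5 (chymotrypsin-like), PSMB6 (caspase-like) and PSMB7 (trypsin-like). The regulatory particle caps the barrel: its base unfolds substrates with a ring of ATPases (the PSMC genes) and its lid removes ubiquitin. In mammalian cells with too little proteasome activity the transcription factor NFE2L1 is processed and raises the proteasome genes together, through antioxidant response elements in their promoters. Breast cancer cells depend on proteasome activity as most dividing cells do.

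Promoter sequences are shown for 4 members that were called after knockdown, since proteasome genes are known to share promoter elements. Of the 33 members, 29 had a promoter in the RefSeq table (GRCh38.p14), with 34 start sites in all. The 250 bases before each start were searched on both strands for CCAAT (the CCAAT box), GGGCGG (the GC box), TGACNNNGC (the core of the antioxidant response element) and TATAAA (the TATA box), and none of these motifs contains another. The antioxidant core was in 7 of the 34 member sequences (20.6%) and in 10.9% of all 35116 promoters. CCAAT was in 41.2% against 32.0%, GGGCGG in 58.8% against 42.6% and TATAAA in 8.82% against 10.7%. A match of letters is a description and not a binding site. The sequences run 5′ to 3′ on the strand of the gene and end at the base before the start, and capitals mark matches to any of the 4 motifs on either strand. PSMC4 lies at chr19:39970915-39971164 on the plus strand, PSMD12 at chr17:67366578-67366827 on the minus strand, PSMD5 at chr9:120842923-120843172 on the minus strand and PSME3 at chr17:42833147-42833396 on the plus strand.
PSMC4: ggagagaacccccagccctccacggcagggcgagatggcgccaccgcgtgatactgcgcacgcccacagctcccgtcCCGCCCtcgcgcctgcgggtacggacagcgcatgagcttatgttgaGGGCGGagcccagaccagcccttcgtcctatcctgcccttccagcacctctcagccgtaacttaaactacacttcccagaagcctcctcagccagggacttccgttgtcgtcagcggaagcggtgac
PSMD12: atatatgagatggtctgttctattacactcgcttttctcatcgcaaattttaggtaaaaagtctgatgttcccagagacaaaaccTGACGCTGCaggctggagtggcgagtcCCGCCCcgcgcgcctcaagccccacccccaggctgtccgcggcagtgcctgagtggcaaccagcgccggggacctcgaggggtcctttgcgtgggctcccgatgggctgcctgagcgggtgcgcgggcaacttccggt
PSMD5: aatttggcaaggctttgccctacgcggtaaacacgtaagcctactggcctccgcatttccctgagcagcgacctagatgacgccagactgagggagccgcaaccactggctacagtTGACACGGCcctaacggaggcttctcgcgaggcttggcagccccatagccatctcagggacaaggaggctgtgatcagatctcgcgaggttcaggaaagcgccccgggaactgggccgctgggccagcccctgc
PSME3: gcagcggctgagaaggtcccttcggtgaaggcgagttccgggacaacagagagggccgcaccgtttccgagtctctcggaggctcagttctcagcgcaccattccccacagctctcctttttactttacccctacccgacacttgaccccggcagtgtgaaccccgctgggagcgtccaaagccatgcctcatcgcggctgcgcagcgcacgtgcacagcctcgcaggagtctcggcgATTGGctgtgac
PSMD12 and PSMD5 hold an antioxidant core, PSMD12 together with a GC box, whereas PSMC4 holds 2 GC boxes and PSME3 a single CCAAT box read on the opposite strand.

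The targeted gene was examined first. PRKCD in MDA-MB-468 cells had log2 signals of 9.15, 9.13 and 8.82 with siControl and 7.29, 7.20 and 7.47 with siPRKCD. The corresponding signals in BT-549 cells were 7.71, 7.73 and 7.76 with siControl and 6.89, 6.67 and 7.01 with siPRKCD. Every siPRKCD array was below every siControl array of its line, and the change, siPRKCD minus siControl, was −1.72 in MDA-MB-468 (SE 0.11, adjusted p = 6.3e-08) and −0.87 in BT-549 (SE 0.11, adjusted p = 5.3e-05, limma). The BT-549 fall has a floor, since PRKCD was still detected on 1 of the 3 siPRKCD arrays only. The arrays detected 15616 to 17724 probes each, and their median signal before normalization was 92.85 to 125.2. Each BT-549 siPRKCD array detected fewer probes than each BT-549 siControl array, and the part of this in the BT-549 results was not tested beyond a fit with array brightness as a covariate. Of 8 epithelial markers, 7 were detected on all siControl and siPRKCD arrays of MDA-MB-468 and 1, CDH1, on those of BT-549. Of 7 mesenchymal markers listed, 6 were detected on all BT-549 arrays and 2, VIM and CDH2, on all MDA-MB-468 arrays. The remaining mesenchymal marker, FN1, did not reach detection on 3 arrays in either line. The endothelial markers PECAM1, VWF, CDH5 and KDR and the leukocyte markers PTPRC and CD3E did not reach detection on 3 arrays. CD68 and CD14 were detected on all 12 arrays, and the log2 of their summed signals was 11.21 to 11.51 in MDA-MB-468 siControl and 9.77 to 10.14 in siPRKCD. Most of this fall was in CD14, with means of 11.03 and 9.07, whereas CD68 had means of 9.07 and 8.88. The part of this fall in the results was not tested. In bulk RNA, fewer cells expressing a gene and less of its RNA per cell cannot be told apart.

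The first comparison asked whether the proteasome genes moved with PKCδ siRNA in MDA-MB-468 cells. Of the 33 members 6 (18.2%) were called at an adjusted p under 0.05 (limma, over all genes tested), where 26.1% of all genes and 29.3% of the 7916 genes detected on all 12 arrays were called. PSMC4, PSMD4 and PSMD8, all of the regulatory particle, rose, and the regulatory subunit PSMD1, the chaperone PSMD5 and the activator PSME3 fell, 3 genes each way beside 12.4% of all genes higher and 13.7% lower. Of the 13 core subunits 0 were called, with 2 at an unadjusted p under 0.05, and limma was the sole tool run. The change was under 0.3 in size for 27 members (81.8%), against 72.4% of all genes and 67.8% of those detected on all 12 arrays.

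PSMC4, an ATPase of the base ring, showed the largest rise among the members. Its log2 signals were 9.76, 9.77 and 9.48 on the siControl arrays and 10.30, 10.43 and 10.23 on the siPRKCD arrays of MDA-MB-468. The siPRKCD arrays all lay above the siControl arrays by a gap wider than the spread of either group, with a change of 0.65 (SE 0.11, n = 3 per group, 1.57-fold, adjusted p = 0.00054). All 3 probes of PSMC4 that were detected moved the same way, by 0.65, 0.63 and 0.44. PSMC4 kept its call under each of the 22 alternatives run, at 0.56 to 0.71.

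PSMD4 encodes a ubiquitin receptor of the regulatory particle. It was at 10.41, 10.46 and 10.28 with siControl and 10.68, 10.80 and 10.86 with siPRKCD, a rise of 0.40 (SE 0.10, adjusted p = 0.010). PSMD8, a lid subunit, was at 10.16, 10.23 and 10.31 against 10.49, 10.50 and 10.73, a rise of 0.35 (SE 0.11, adjusted p = 0.034). Neither gene had overlapping groups. The PSMD8 call was lost without siControl replicate 1 (adjusted p = 0.112), siControl replicate 2 (0.080), siPRKCD replicate 2 (0.053) or siPRKCD replicate 3 (0.121), and both calls were lost with median centring (0.0723 for PSMD4 and 0.175 for PSMD8).

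PSMD5 encodes a chaperone that holds part of the base during assembly. Its signals fell from 8.17, 8.15 and 7.97 to 7.61, 7.50 and 7.48, which left a clear gap between the groups. The change was −0.57 (SE 0.12, 1.48-fold lower, adjusted p = 0.0030), and it kept its call under all 22 alternatives. PSMD1, the large scaffold of the base, was at 10.03, 10.32 and 10.04 with siControl and 9.77, 9.92 and 9.46 with siPRKCD (−0.41, SE 0.14, adjusted p = 0.037). PSME3, a nuclear activator that opens the core particle without ATP, was at 9.57, 9.58 and 9.40 against 9.26, 9.08 and 9.29 (−0.31, SE 0.11, adjusted p = 0.047). Their groups did not overlap either, but PSMD1 and PSME3 lay close to the threshold. The PSMD1 call was lost without siControl replicate 1 (0.0502), siControl replicate 2 (0.159), siPRKCD replicate 1 (0.0649), siPRKCD replicate 3 (0.153) or BT-549 siControl replicate 2 (0.0505), and with median centring (0.119). The PSME3 call was lost without any of 7 arrays (siControl replicates 1 and 2, siPRKCD replicates 1 and 2, BT-549 siControl replicates 1 and 2 and BT-549 siPRKCD replicate 3), with adjusted p of 0.0552 to 0.184, and with median centring (0.368).

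**Figure D1:**
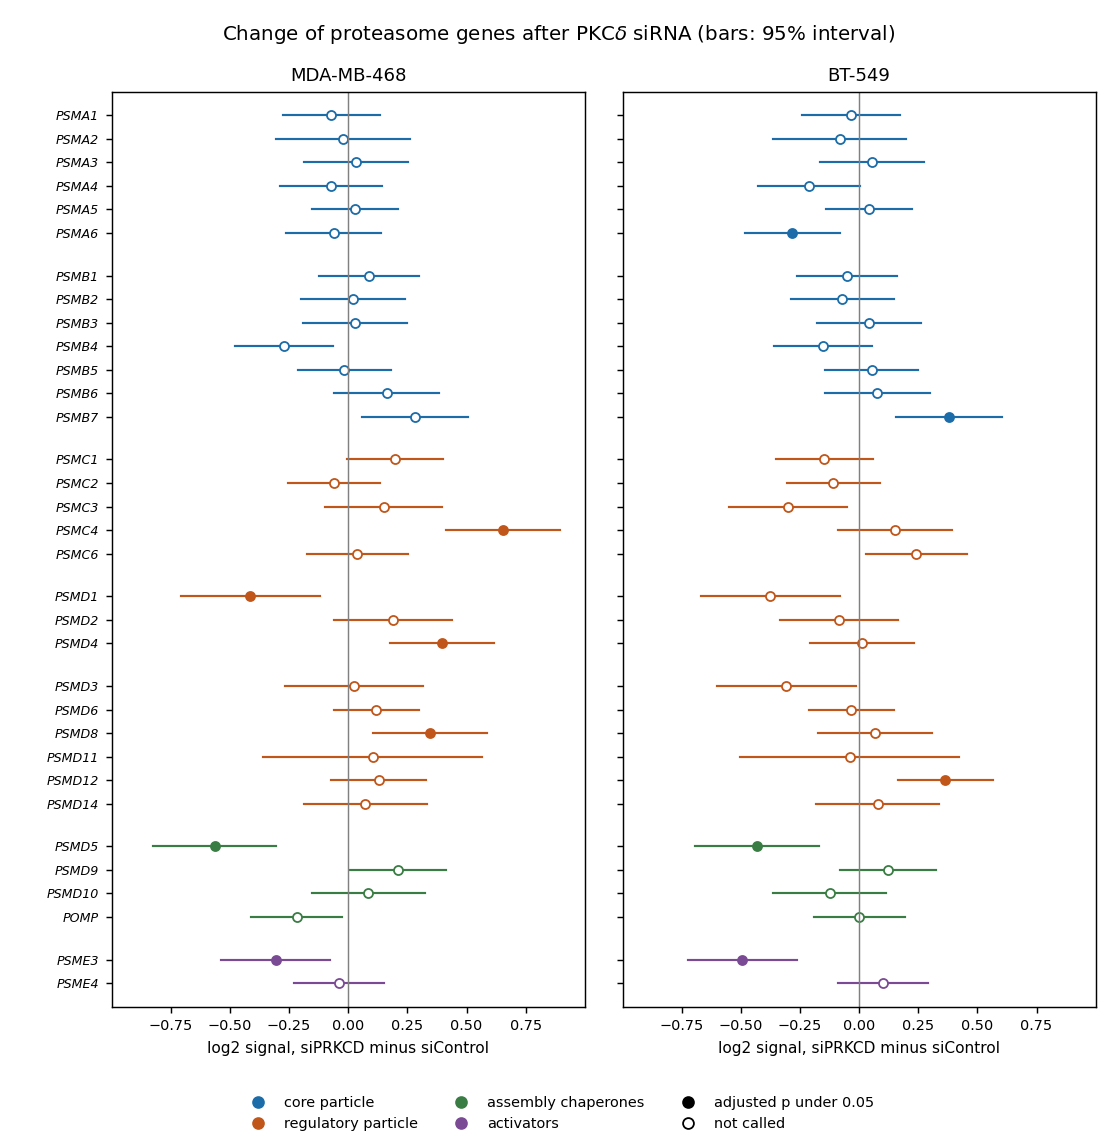
Change in log2 signal after PKCδ siRNA for the 33 members (rows, grouped as α and β core subunits, base ATPases, other base subunits, lid subunits, chaperones and activators) in MDA-MB-468 (left) and BT-549 (right). Points are limma estimates, bars are 95% intervals, and filled points mark an adjusted p under 0.05: 6 members on the left and 5 on the right, with PSMD5 and PSME3 lower in both panels.

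The core particle had all 13 changes under 0.3 in size in MDA-MB-468 cells. The changes of its 13 genes ran from −0.27 for PSMB4, a β subunit (adjusted p = 0.051), to 0.28 for PSMB7 (adjusted p = 0.062), with a median of 0.019 beside 0.0027 over all genes. PSMB5 was at 11.11, 11.10 and 11.37 with siControl and 11.24, 11.18 and 11.12 with siPRKCD, PSMB6 at 12.37, 12.38 and 12.10 against 12.54, 12.54 and 12.25, and PSMB7 at 11.62, 11.81 and 11.55 against 11.96, 12.09 and 11.78. The groups overlapped for each of these catalytic subunits. For 12 of the 13 core genes the 95% interval of the change lay within 0.5 on the log2 scale, or 1.41-fold, and for PSMB7 it reached 0.51. With the replicate number as a block, PSMB4 (adjusted p = 0.038) and PSMB7 (adjusted p = 0.033) were called as well, giving 8 members. PSMB4, whose groups did not overlap, was also called without the detection filter (0.049) and with the mean over detected probes (0.0402). Array weights (0.0434), array brightness as a covariate (0.0333) and leaving out BT-549 siPRKCD replicate 1 (0.0437) or 2 (0.0341) called it too. PSMB7 was also called with array weights (0.0411) and without siControl replicate 2 (0.0407) or siPRKCD replicate 3 (0.0244).

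In MDA-MB-468 12 of the 14 regulatory genes had a positive change, 3 of them called higher, and PSMD1 was called lower. The median was 0.12, beside 0.0223 over the 7916 genes detected on all 12 arrays. A positive change was found in 50.5% of all genes and in 4210 of those 7916. All 6 lid genes among the members were positive, and 4 of the 5 base ATPases. SEM1 and ADRM1, further 26S subunits kept in a companion list and so outside these counts, were at −0.23 and 0.55. With array weights, and with array brightness as a covariate, 1 of the 6 lid genes turned negative. With the brightness covariate 11 of the 14 regulatory genes were positive. The mean over the 14 genes, with each gene's siControl mean set to 0, was −0.049, 0.020 and 0.029 on the siControl arrays and 0.10, 0.17 and 0.15 on the siPRKCD arrays, so the groups did not overlap. The same mean over the core genes was −0.038, 0.013 and 0.025 against 0.023, 0.015 and −0.010, which did overlap. Single genes separated as follows: in 12 members the siPRKCD and siControl arrays did not overlap, 7 higher and 5 lower, where 19.3% of all genes were separate and higher and 19.7% separate and lower.

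In BT-549 cells the same siRNA changed 5 of the 33 members (15.2%), against 26.4% of all genes and 31.1% of those detected on all 12 arrays. The core subunit PSMB7 and the lid subunit PSMD12 rose, and PSME3, PSMD5 and the core subunit PSMA6 fell, beside 11.6% of all genes higher and 14.9% lower. The change was under 0.3 in size for 26 members (78.8%), against 71.4% of all genes and 65.5% of those detected on all 12 arrays.

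PSMB7, the trypsin-like catalytic subunit, was at 12.79, 12.88 and 12.72 with siControl and 13.18, 13.06 and 13.29 with siPRKCD. The rise of 0.38 (SE 0.11, 1.30-fold, adjusted p = 0.014) separated the groups, while the other catalytic subunits changed little. PSMB5 was at 11.34, 11.40 and 11.40 against 11.35, 11.46 and 11.49 (0.05, adjusted p = 0.74), and PSMB6 at 12.81, 12.80 and 12.65 against 12.84, 12.82 and 12.83 (0.08, adjusted p = 0.65). PSMD12, a structural lid subunit, was at 10.22, 10.30 and 10.39 against 10.75, 10.68 and 10.57, without overlap (0.36, SE 0.094, adjusted p = 0.0095). Median centring left neither rise called (adjusted p = 0.0906 for PSMB7 and 0.153 for PSMD12). The PSMB7 call was also lost without siControl replicate 3 (0.0502) or siPRKCD replicate 3 (0.0604).

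PSME3 gave the largest fall of the members in BT-549. Its signals were 9.70, 9.71 and 9.86 with siControl and 9.48, 9.10 and 9.22 with siPRKCD, with no overlap (−0.49, SE 0.11, 1.41-fold lower, adjusted p = 0.0031). A further PSME3 probe gave −0.20, and the call stood under all 22 alternatives. PSMD5 was at 8.72, 8.61 and 8.43 against 8.18, 7.88 and 8.41, where the highest siPRKCD array reached just below the lowest siControl array (−0.43, SE 0.12, adjusted p = 0.017). PSMA6, an α ring subunit, was at 12.64, 12.61 and 12.82 against 12.38, 12.47 and 12.37 (−0.28, SE 0.094, adjusted p = 0.037). The PSMD5 call was lost without siControl replicate 1 (0.0814), siControl replicate 2 (0.0546) or siPRKCD replicate 2 (0.0846). The PSMA6 call was lost without siControl replicate 1 (0.0629) or 3 (0.14), or siPRKCD replicate 1 (0.0906) or 3 (0.0937), and with median centring (0.199).

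Among the members that were not called in BT-549, the interval of the change lay within 0.5 for 24 of 28. The exceptions, PSMC3, PSMD1, PSMD3 and PSMD11, all belong to the regulatory particle, and the lowest bound of the 28 intervals was −0.67, for PSMD1. PSMD1, called lower in MDA-MB-468, was at 9.78, 9.95 and 10.21 with siControl and 9.41, 9.76 and 9.65 with siPRKCD (−0.38, adjusted p = 0.056). These PSMD1 groups did not overlap. The median change was −0.034 over the core particle and −0.037 over the regulatory particle, beside −0.0095 over all genes. Under median centring both medians were −0.11, beside −0.062 over all genes in that setting. Groups did not overlap in 11 members, 4 higher and 7 lower, against 19.0% of all genes higher and 22.0% lower.

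**Figure D2:**
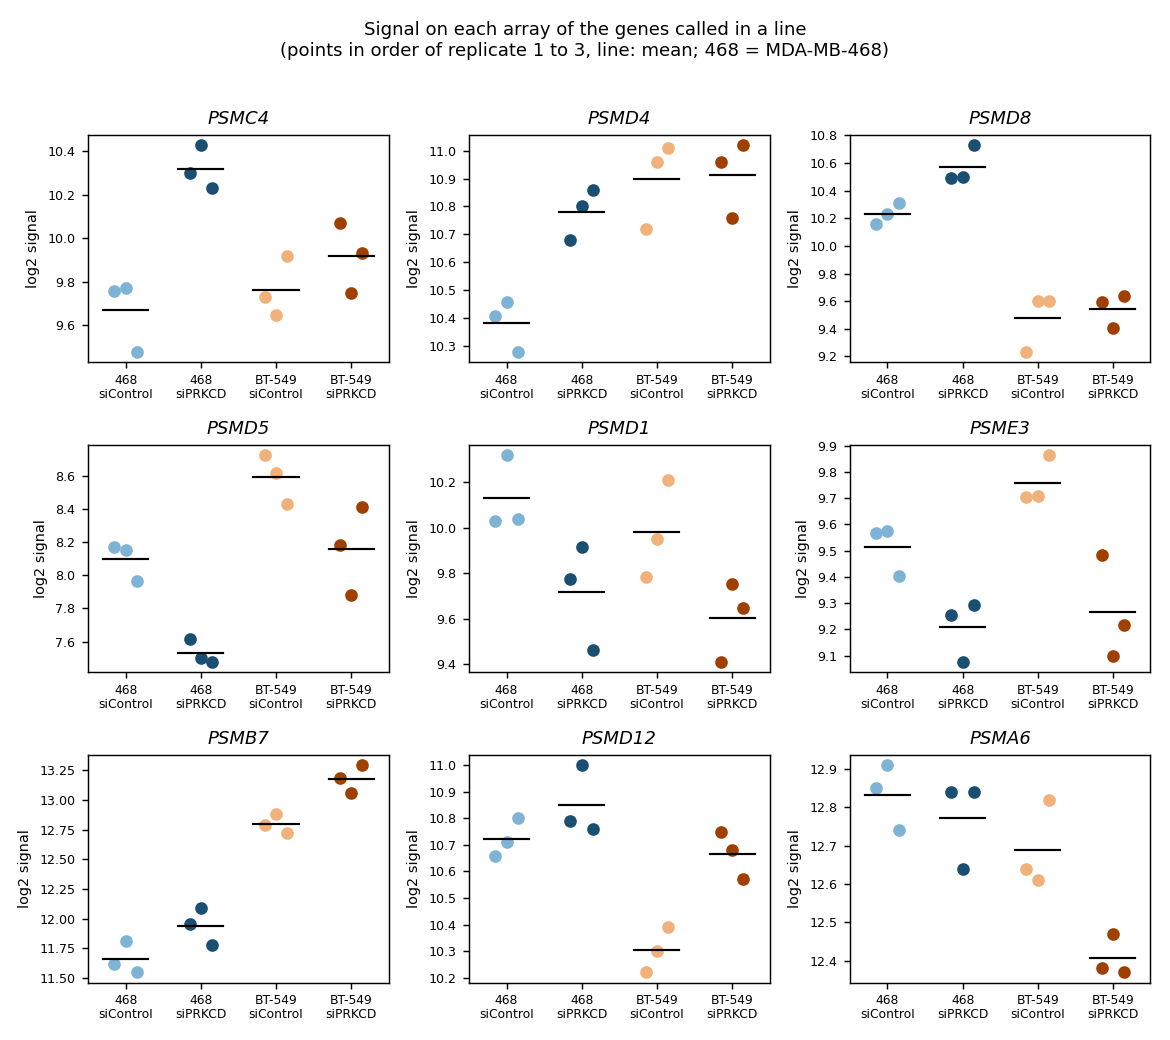
Quantile-normalized log2 signal on each of the 12 arrays for the 9 members called in at least 1 line after PKCδ siRNA. Points are arrays in order of replicate number within each group, horizontal lines are group means, and each panel has its own axis that does not start at 0. PSMD5 and PSME3 lie lower with siPRKCD in both lines, and PSMC4 is displaced upwards in MDA-MB-468 from 9.48 to 9.77 on siControl arrays to 10.23 to 10.43 on siPRKCD arrays.

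The chaperones other than PSMD5 were called in neither line. POMP was at 12.43, 12.54 and 12.62 with siControl and 12.33, 12.36 and 12.24 with siPRKCD in MDA-MB-468 (−0.22, SE 0.091, adjusted p = 0.092), so that its groups did not overlap, and its change in BT-549 was 0.0012 (adjusted p = 1.0). PSMD9, a chaperone of the base, was at 7.18, 7.20 and 7.08 against 7.52, 7.26 and 7.32 in MDA-MB-468 (0.21, SE 0.096, adjusted p = 0.12), again without overlap. PSMD10, also known as the oncoprotein gankyrin, overlapped between the groups of both lines (MDA-MB-468 0.09, BT-549 −0.12). The activator PSME4 did so too, with −0.04 and 0.10, unlike PSME3.

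Of the regulatory genes not called, PSMC1, an ATPase next to the gate of the core, was at 12.15, 12.29 and 12.27 against 12.50, 12.46 and 12.35 in MDA-MB-468 (0.20, adjusted p = 0.15) and at 12.47, 12.51 and 12.51 against 12.54, 12.20 and 12.31 in BT-549 (−0.15, adjusted p = 0.29). Only the MDA-MB-468 groups were separate. PSMC6, another ATPase, was at 10.97, 11.18 and 11.04 against 11.21, 11.28 and 11.43 in BT-549, without overlap (0.24, adjusted p = 0.090). PSMD3, a lid subunit, was at 8.06, 8.05 and 8.17 against 7.56, 7.95 and 7.85 in BT-549, also without overlap (−0.31, SE 0.14, adjusted p = 0.12). PSMD2 (0.19) and PSMD6 (0.12) in MDA-MB-468 and PSMC2 (−0.11) and PSMC3 (−0.30) in BT-549 were separate too. Of all genes, 19.3% were separate and higher and 19.7% separate and lower in MDA-MB-468, and 19.0% and 22.0% in BT-549. PSMD11, a further lid subunit, scattered most among the members: its 3 siControl arrays of MDA-MB-468 read 7.58, 7.59 and 8.22, and the SE of its change was 0.22 in either line.

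Of the 33 members, 9 were called in at least 1 line and 24 in neither. PSMD5 and PSME3 were called lower in both lines, which was the case for 5.67% of all genes, and 0 members were called higher in both, against 4.56% of all genes. No member was called in opposite directions.

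Whether the response differed between the lines was tested as an interaction, the BT-549 change minus the MDA-MB-468 change. It was called for 0 of the 33 members, against 10.8% of all genes, with 4 members at an unadjusted p under 0.05. In simulated data the interaction test recovered 20 of 50 changes of 0.6 and 2 of 50 of 0.3. The 0 calls therefore do not show that the lines responded alike. PSMC4 had the lowest adjusted p, with a change of 0.65 in MDA-MB-468 beside 0.15 in BT-549, where its signals were 9.73, 9.65 and 9.92 with siControl and 10.07, 9.75 and 9.93 with siPRKCD and overlapped. The difference of −0.50 (95% interval −0.84 to −0.16) had an adjusted p of 0.057, and of 0.018 with the replicate number as a block. PSMC3, another ATPase of the ring, followed with −0.45 (adjusted p = 0.098) and PSMD4 with −0.39 (adjusted p = 0.11). Leaving out BT-549 siPRKCD replicate 1 gave 2 calls, PSMC4 (adjusted p = 0.0401) and PSMC1 (0.047), and leaving out BT-549 siPRKCD replicate 3 gave 1, PSMC3 (0.0349). The median difference was −0.21 over the 14 regulatory genes and 0.013 over the 13 core genes, beside −0.011 over all genes. Under median centring these medians were −0.33, −0.083 and −0.090.

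**Figure D3:**
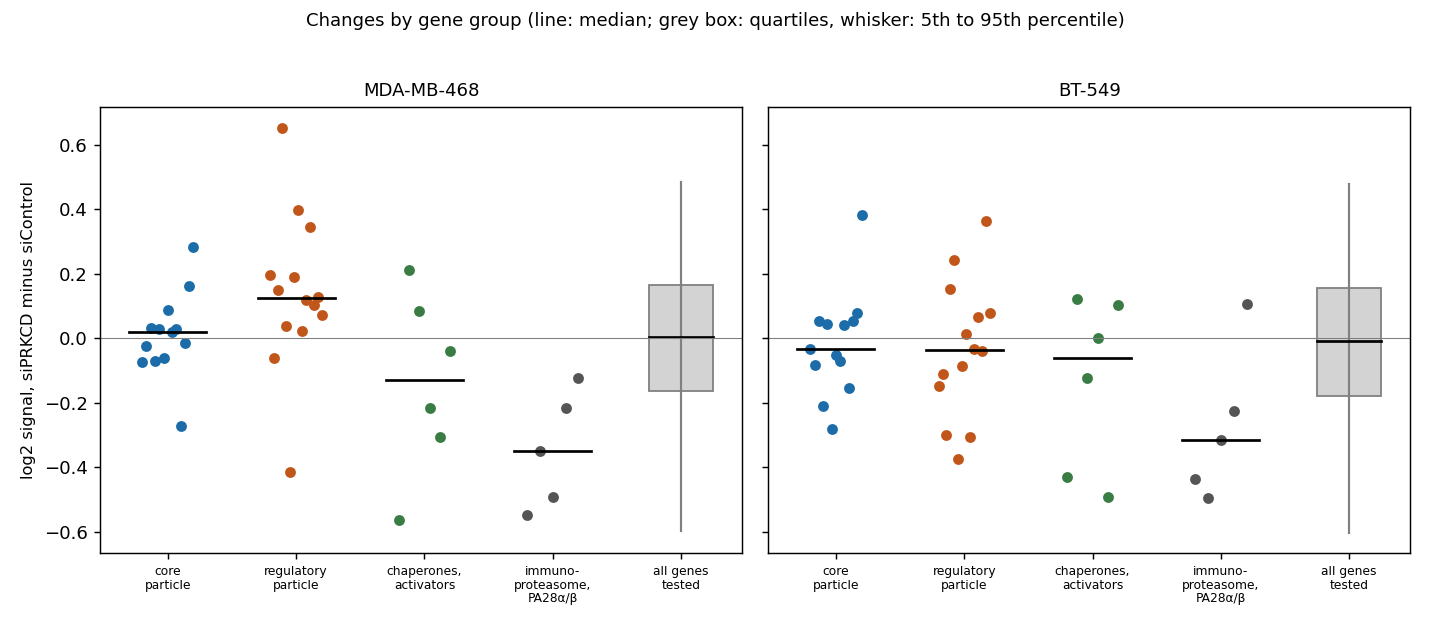
Change in log2 signal after PKCδ siRNA by gene group in MDA-MB-468 (left) and BT-549 (right). Each point is a gene, spread sideways for legibility, black lines are medians, and the grey box and whisker give the quartiles and the 5th to 95th percentiles of all 11459 genes. The median of the regulatory particle was 0.12 on the left and −0.037 on the right, while the immunoproteasome and PA28α/β genes lie mostly below 0 in both lines.

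The siControl arrays were compared to learn how the lines differ without PRKCD knockdown, in cells given the control siRNA. They are the same arrays that serve as controls above. Since only BT-549 was grown with added insulin, line and medium cannot be told apart here or in the interaction. Calls were made for 19 of the 33 members (57.6%), a share near the 62.3% of all genes. Relative to MDA-MB-468, BT-549 had 10 members higher and 9 lower, against 32.6% of all genes higher and 29.7% lower. The difference was under 0.3 in size for 15 members (45.5%), against 41.6% of all genes.

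PSMD2, a base scaffold that binds ubiquitin-like domains, had the largest excess in BT-549, at 11.21, 11.05 and 11.09 against 9.86, 9.90 and 9.78 in MDA-MB-468 (1.27, SE 0.12, 2.41-fold, adjusted p = 8.4e-08). PSMB7 was at 12.79, 12.88 and 12.72 against 11.62, 11.81 and 11.55 (1.13, SE 0.11, 2.19-fold, adjusted p = 9.4e-08). POMP, a chaperone that joins the β ring during assembly and is then degraded, was at 13.06, 13.10 and 13.30 against 12.43, 12.54 and 12.62 (0.62, SE 0.091, adjusted p = 1.7e-05). None of these groups overlapped. PSMB6 (0.47), PSMD4 (0.52), PSMD5 (0.49), PSMD6 (0.40), PSMB4 (0.32), PSMD10 (0.30) and PSMC1 (0.26) were also called higher in BT-549.

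PSME4, an activator linked to histone degradation, was the member most in excess in MDA-MB-468, at 11.36, 11.45 and 11.30 against 10.21, 10.06 and 9.99 in BT-549 (−1.29, SE 0.089, 2.44-fold, adjusted p = 2.4e-09). The α subunit PSMA3 was at 12.34, 12.40 and 12.26 against 11.09, 11.35 and 11.33 (−1.08, SE 0.10, 2.11-fold, adjusted p = 1.4e-07), and a further PSMA3 probe gave −1.28. PSMC3 was at 11.39, 11.46 and 11.06 against 10.51, 10.49 and 10.46 (−0.81, SE 0.12, adjusted p = 1.4e-05). These groups were again well apart. PSMD8 (−0.75), PSMC6 (−0.60), PSMB2 (−0.58), PSMA5 (−0.55), PSMD12 (−0.42) and PSMD14 (−0.32), the deubiquitinase of the lid, were lower in BT-549 too.

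**Figure D4:**
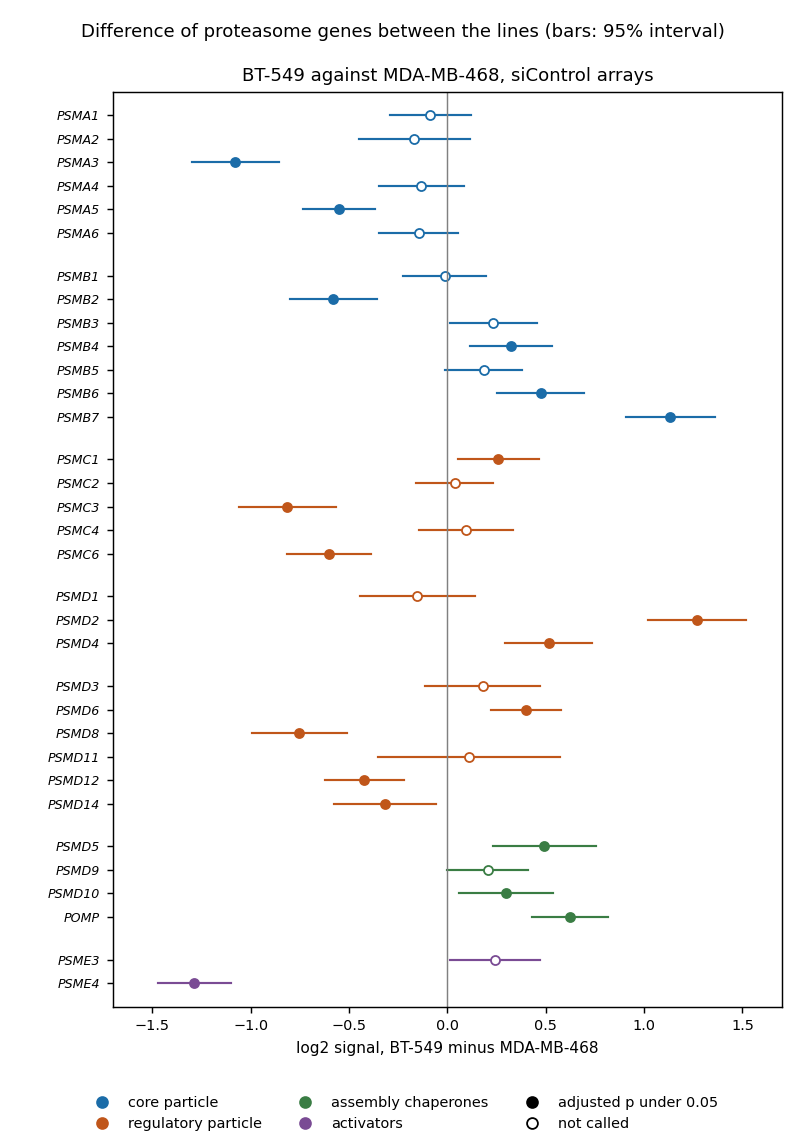
Difference in log2 signal between the siControl arrays of the lines, BT-549 minus MDA-MB-468, for the 33 members in the same order of groups. Points are limma estimates, bars are 95% intervals, and filled points mark an adjusted p under 0.05: 10 members were higher in BT-549, up to 1.27 for PSMD2, and 9 lower, down to −1.29 for PSME4.

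The members differed in both directions between the lines, beside 32.6% of all genes called higher in BT-549 and 29.7% called lower. The 6 α subunits all had a negative difference (2 called) and the 4 chaperones all a positive one (3 called), beside 48.4% of all genes negative. With array weights, and with the mean over all detected probes of a gene, 1 of the 6 α subunits turned positive, and a further PSMA1 probe gave 0.19. Among the β subunits 3 were called higher in BT-549 and 1 lower, and in the regulatory particle 4 higher and 5 lower. PSMB5 did not pass the test (0.18, 95% interval −0.011 to 0.38, adjusted p = 0.094). The medians were −0.088 for the core and 0.066 for the regulatory particle, beside 0.020 over all genes. PSMC1, PSMD10 and PSMD14 lost their call without some arrays: PSMC1 without MDA-MB-468 siControl replicate 1 (adjusted p = 0.107) or BT-549 siControl replicate 2 (0.0687) or 3 (0.0642), PSMD10 without MDA-MB-468 siControl replicate 3 (0.136) or BT-549 siControl replicate 1 (0.132), and PSMD14 without MDA-MB-468 siControl replicate 3 (0.16) or BT-549 siControl replicate 1 (0.133) or 2 (0.0801). With the replicate number as a block PSMB3, a β subunit, was called higher in BT-549 as well (0.23, adjusted p = 0.041).

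Genes that work with the constitutive proteasome were read as further lists, with the shares of all genes called as above. The immunoproteasome subunits PSMB8, PSMB9 and PSMB10, which replace the constitutive catalytic subunits in cells exposed to interferon, were called lower in MDA-MB-468 on the brightest probe of each (−0.55, adjusted p = 0.00025; −0.35, 0.031; −0.49, 0.012). In BT-549 PSMB8 (−0.44, adjusted p = 0.0015) and PSMB9 (−0.49, 0.0038) were called lower, while PSMB10 was at −0.31 (0.094). The probes of PSMB8 and PSMB9 did not all move alike. The other PSMB8 probes gave −0.15, −0.58 and 0.055 in MDA-MB-468 and −0.41, −0.40 and 0.034 in BT-549, and the other PSMB9 probe gave 0.071 and −0.17. With the mean over the detected probes PSMB8 was called in neither line (adjusted p = 0.053 and 0.0536) and PSMB9 not in MDA-MB-468 (−0.14, adjusted p = 0.277). The median over these 3 genes, PSME1 and PSME2 then went from −0.35 to −0.14 in MDA-MB-468. The PA28 activator genes PSME1 and PSME2 were called in neither line. Between the siControl arrays, 4 of these 5 genes were lower in BT-549, PSMB8 most of all (−1.43, adjusted p = 4.4e-10).

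The further core chaperones PSMG1 to PSMG4, which start the assembly of the α ring, gave 0 calls in MDA-MB-468, with 0 at an unadjusted p under 0.05. In BT-549 all 4 had positive changes and PSMG3 (0.32, adjusted p = 0.046) and PSMG4 (0.24, adjusted p = 0.043) rose. Between the siControl arrays 3 of the 4 were lower in BT-549, by as much as −1.42 for PSMG2. Of 8 other genes of bound factors, ADRM1, a ubiquitin receptor of the base, rose in MDA-MB-468 (0.55, adjusted p = 0.0085), as PSMD4 did. In BT-549 UCHL5, the deubiquitinase that ADRM1 recruits, rose (0.34, adjusted p = 0.021) and ECPAS, a proteasome adaptor, was called lower (−0.33, adjusted p = 0.035), with −0.11 on its other probe and an adjusted p of 0.0562 over the mean of both.

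Of the NFE2L1 pathway 7 genes were measured. In MDA-MB-468 MAFF, a small partner protein of NFE2L1, was called higher (0.57, adjusted p = 0.017), with 0.65 and −0.27 on its other probes and an adjusted p of 0.0514 over the mean of the 3. There NFE2L2, its relative, and NGLY1, the enzyme that removes its sugars, fell (−0.51, 0.0060, and −0.37, 0.0042). In BT-549 MAFF rose (0.92, adjusted p = 0.00070), with 0.91 and −0.067 on its other probes and 0.59 over the mean of the 3 (adjusted p = 0.00145). NFE2L1 itself (−0.46, adjusted p = 0.0094) and VCP, the ATPase that extracts it from the membrane (−0.46, 0.023), fell there. NFE2L1 was at −0.24 in MDA-MB-468 (adjusted p = 0.15). The antioxidant core was in promoters of PSMA4, PSMB3, PSMD3, PSMD5, PSMD9, PSMD12 and PSME4. Among these members PSMD5 alone was called in MDA-MB-468, where 26.1% of all genes were called. In BT-549 PSMD5 and PSMD12 were called, in opposite directions, beside 26.4% of all genes. PSMD4 and PSMB7, each called in a line, had no promoter entry and could not be classed. Of 3 ubiquitin and E1 genes measured, UBA1, which activates ubiquitin, fell in BT-549 (−0.36, adjusted p = 0.0092). Of 4 ubiquitin shuttle factors, UBQLN2 fell in MDA-MB-468 (−0.46, adjusted p = 0.019), and RAD23B rose in BT-549 (0.29, 0.044). The 3 UBQLN1 probes went both ways in MDA-MB-468, at −0.38 on the brightest (adjusted p = 0.0044) and 0.32 and 0.46 on the others, so UBQLN1 is given no direction. The calls of PSMG3, PSMG4 and RAD23B in BT-549 were the least stable of these genes, lost under 13, 13 and 12 of the 22 alternatives.

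Some calls of these companion genes rested on single arrays or on the scaling. In MDA-MB-468 ADRM1 was not called without siPRKCD replicate 2 (adjusted p = 0.0529), nor MAFF without siControl replicate 1 (0.0555) or siPRKCD replicate 1 (0.0636) or 2 (0.0813). UBQLN2 was not called without siPRKCD replicate 1 (0.0847) or 2 (0.0799) or siControl replicate 3 (0.0847), nor PSMB9 without siControl replicate 1 (0.101) or 2 (0.0953) or siPRKCD replicate 1 (0.0746) or 3 (0.0798). In BT-549 UCHL5 was not called without siControl replicate 1 (0.0589) or 2 (0.0674) or siPRKCD replicate 2 (0.0927), nor VCP without siControl replicate 1 (0.0673) or 2 (0.0931) or siPRKCD replicate 2 (0.113). ECPAS was called there only with all arrays or without siPRKCD replicate 2, among the arrays of that line. PSMG3 lost its call without any 1 of the 6 BT-549 arrays. Leaving out 1 such array, PSMG4 was called only without siPRKCD replicate 2, and RAD23B only without siControl replicate 2. Under median centring NFE2L2 (0.0672), NGLY1 (0.136) and PSMB10 (0.0922) were not called in MDA-MB-468 either.

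Different probes of a gene agreed only in part. Of the 33 members 11 had several detected probes, and the probe with the highest mean signal was used. For PSMD4 in MDA-MB-468 the 3 probes gave 0.40, 0.30 and 0.16, for PSME3 −0.31 and −0.38, and for PSMA6 in BT-549 −0.28 and −0.26. The probes of PSMA1, PSMA4, PSMD10, PSMC4, PSMD4 and PSME3 differed in sign in at least 1 comparison. For PSMA1 in MDA-MB-468 they gave −0.07 and 0.08, and the gene was not called. PSMC4 probes gave 0.095, −0.14 and 0.028 between the lines, and PSMD4 probes 0.012, −0.13 and −0.086 in BT-549. For the interaction of PSME3 the probes gave −0.19 and 0.18. These 3 genes were not called in those comparisons.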

How the data were processed

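RNA from the 12 samples was labeled with the TotalPrep-96 kit and hybridized to HT-12 v4 arrays. The authors deposited bead signal intensity values both raw and after their own normalization, and the deposited tables hold a detection p-value beside every raw signal. The scanner software is not given in the sources used here. Raw intensities of all 12 arrays were quantile-normalized together and log2-transformed. This differed from the deposited normalized intensities by at most 0.00827 on the log2 scale. Of 47323 probes 30113 had a single gene symbol, and 19439 passed the detection p-value of 0.01 on at least 3 arrays. Genes with several probes were read from the probe with the highest mean. Precision is limited by the number of arrays.

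Tests were run in R 4.3.3 with limma 3.58.1 in 1 model of 4 group means, with Benjamini-Hochberg adjustment over 11459 genes and calls at 0.05, after the code was tested on simulated data. Probe sequences were not used, so signal from pseudogenes or related transcripts, which several proteasome genes have, could not be separated. The labels name no shared culture, and the main model held no replicate block, so possible pairs were ignored in the calls above. Deviations of same-numbered siControl and siPRKCD arrays correlated at 0.367, 0.287 and 0.492 in MDA-MB-468, and those of unlike numbers at −0.392 to 0.171. Between the siControl arrays of the lines the same-numbered values were 0.105, 0.116 and 0.162, but MDA-MB-468 replicate 1 and BT-549 replicate 2 reached 0.117. In BT-549 they were 0.281, 0.00988 and 0.0464, with unlike numbers up to 0.22. A block by replicate number was run as an alternative in every comparison, BT-549 included.

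All members were counted. Values per array were given for PRKCD, PSMB5, PSMB6 and PSMB7, for up to 4 called rises and 4 falls in each line, up to 3 each way between the lines and up to 3 of the interaction, and for companion lists the called genes, at most 3 a list. A few further members were named after their values were seen. The members and lists were chosen with earlier results of these data known. RefSeq promoters were of GRCh38.p14, and the bases after the start were not used.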

Additional observations from a re-analysis of the deposited data

Results flagged for a closer look

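The measured change in PRKCD signal differed between the lines. It was smaller in BT-549 than in MDA-MB-468 (interaction 0.84 on the log2 scale, SE 0.16, adjusted p = 0.0032, limma), and it was lower in 3 of 3 siPRKCD arrays in each line. The siControl signal was lower in BT-549 (7.73 ± 0.026, SD, n = 3) than in MDA-MB-468 (9.03 ± 0.19), and PRKCD was above detection on 1 of 3 BT-549 siPRKCD arrays. The BT-549 change is thus bounded by the background, and the interaction does not show how far PRKCD itself was lowered in either line.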

How the results depend on the processing

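Of the member calls, PSMC4 and PSMD5 in MDA-MB-468, PSME3 in BT-549 and 16 of the 19 between the lines kept direction and threshold under all 22 alternatives, and no called value reversed. The 6 calls in MDA-MB-468 became 2 with median centring, 3 with neqc background correction and 10 with array weights. The 5 in BT-549 became 3 with median centring (0 higher and 3 lower, against 2 and 3), 3 with neqc, 8 with the replicate block (adding PSMC3, PSMD1 and PSMD3) and 9 with array weights. For the interaction the 0 calls became 1 (PSMC4) with the replicate block. Leaving out 1 array at a time gave 3 to 7 calls in MDA-MB-468 (3 without siControl replicate 1), 3 to 7 in BT-549 (3 without siControl replicate 3), 18 to 20 between the lines and 0 to 2 for the interaction. The replicate block otherwise added PSMB4 and PSMB7 in MDA-MB-468 and PSMB3 between the lines and changed no other call of a member. Causes were not tested. PSMD1 (adjusted p = 0.0718), PSMD8 (0.0865) and PSME3 (0.0925) in MDA-MB-468 and PSMB7 (0.0522) and PSMA6 (0.114) in BT-549 were not called with neqc. Without the detection filter PSMD1 (0.068) and PSME3 (0.0581) were not called in MDA-MB-468, and with array brightness as a covariate, an alternative chosen after seeing the data, neither were PSME3 there (0.0536) nor PSMA6 in BT-549 (0.0526). No scaling moved the median change of all genes by more than 0.1. A block by slide or scan was not run, since the files name none.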
